A study of Mus musculus with 12 samples.

Results

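The mitochondrial carrier family SLC25 was taken as every row of the count table whose mouse gene symbol is Slc25a followed by a number. This rule uses symbols only and found 47 genes among 37141 rows. After the filter on low counts, 34 of the 47 were among the 10780 genes tested. The study measured the RNA of hepatocytes, the metabolic cells of the liver, with and without YAP and TAZ, the transcriptional effectors of the Hippo pathway, and with and without acute injury. All 12 libraries came from Yapflox/flox; Tazflox/flox mice, in 4 groups of 3. They are uninjured controls (ctrl), controls 48 h after 1 ml/kg carbon tetrachloride in corn oil (ctrl + CCl4), knockouts without injury (Yap/Taz KO) and knockouts 48 h after the same injury (Yap/Taz KO + CCl4). Gene deletion used 5e11 genome copies of AAV8.TBG.PI.Cre, a viral vector that makes Cre recombinase from the hepatocyte TBG promoter, 3 weeks before injury or collection. The deletion is therefore aimed at hepatocytes, and both genes were not measured in other liver cells. The labels give no age, no vector for the controls and no injection for the uninjured groups, so effects of the vector and of the injection cannot be told apart from those of the knockout and the injury. Cells came from perfused livers by low-speed spins and flow sorting, 500000 per library. The sources used here give neither the sort gate nor whether samples came from separate animals. All p-values therefore rest on the spread among these libraries, which may be technical.

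SLC25 proteins are the main transporters of the inner mitochondrial membrane. They are built from repeated pairs of membrane helices, are encoded in the nucleus and are imported into mitochondria after translation. By exchanging ADP, phosphate, citrate, malate, aspartate, ornithine, acylcarnitines, coenzyme A, NAD, iron and glutathione across that membrane, they join the mitochondrial and cytosolic steps of pathways. In liver these pathways include urea synthesis, gluconeogenesis, lipogenesis and fatty acid oxidation.

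RefSeq promoter windows (GRCm38.p6, 250 bases before to 50 after a transcript start) matched 36 of the 47 members by symbol. They are shown for 4 of the 7 members called the same way after injury in both genotypes, picked after their values were seen: the risers Slc25a4 (chr8:46211013-46211312, minus strand) and Slc25a24 (chr3:109122899-109123198, plus strand), Slc25a23 (chr17:57059814-57060113, minus strand, the first of its windows), a paralog of Slc25a24 that fell, and Slc25a47 (chr12:108850879-108851178, plus strand), which had the largest fall of the tested members in knockouts. Capitals mark the letters of a searched motif on either strand.
Slc25a4: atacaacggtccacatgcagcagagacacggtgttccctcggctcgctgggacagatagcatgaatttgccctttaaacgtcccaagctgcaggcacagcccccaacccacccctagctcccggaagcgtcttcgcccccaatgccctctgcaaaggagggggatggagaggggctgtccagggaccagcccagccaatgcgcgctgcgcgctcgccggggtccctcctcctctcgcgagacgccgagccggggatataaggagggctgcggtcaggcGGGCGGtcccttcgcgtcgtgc
Slc25a24: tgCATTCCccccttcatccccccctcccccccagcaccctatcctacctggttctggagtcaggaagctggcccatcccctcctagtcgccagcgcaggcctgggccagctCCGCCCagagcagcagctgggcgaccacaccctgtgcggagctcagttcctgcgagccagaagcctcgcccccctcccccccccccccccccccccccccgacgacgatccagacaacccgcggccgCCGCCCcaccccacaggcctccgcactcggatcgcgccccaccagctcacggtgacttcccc
Slc25a23: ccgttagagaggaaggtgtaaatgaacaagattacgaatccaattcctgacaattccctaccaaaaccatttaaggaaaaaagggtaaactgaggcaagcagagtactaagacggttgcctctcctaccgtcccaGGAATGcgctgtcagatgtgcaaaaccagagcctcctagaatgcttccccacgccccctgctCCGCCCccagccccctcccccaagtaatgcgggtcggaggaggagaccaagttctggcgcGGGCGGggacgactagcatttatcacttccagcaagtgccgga
Slc25a47: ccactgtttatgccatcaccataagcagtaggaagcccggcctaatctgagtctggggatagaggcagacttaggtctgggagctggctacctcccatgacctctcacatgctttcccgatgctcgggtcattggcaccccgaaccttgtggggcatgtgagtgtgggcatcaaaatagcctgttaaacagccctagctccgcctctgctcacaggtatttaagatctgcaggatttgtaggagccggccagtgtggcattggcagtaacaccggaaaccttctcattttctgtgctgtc
The 4 motifs were searched on both strands: GGAATG (TEAD element, bound by the partners of YAP and TAZ), GCGCNTGCGC (NRF1 site), TGACGTCA (cyclic AMP response element) and GGGCGG (GC box). None of these letter strings contains another. GGAATG occurred in 7 of the 36 members (19.4%) against 16.6% of all 27025 genes with a window, and GCGCNTGCGC in 2 members (5.56%) against 5.19%. TGACGTCA occurred in 2 members (5.56%) against 2.03% of all genes. GGGCGG occurred in 30 members (83.3%) against 38.2%, and the Slc25a47 window is among the 6 members without it. All genes with a window include many that were not tested here, and the share among tested genes was not computed. Among the 11 members with a window that fell in at least 1 injury response, 4 held GGAATG, and of the risers Slc25a24 did and Slc25a4 did not. A match is a string of letters and not evidence of binding.

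All 47 members were found in the GENCODE M21 annotation (build GRCm38), on 19 chromosomes, and all are annotated as protein-coding. There are 4 pairs within 50000 bases of each other, and each pair holds a member that was tested and a member that was not. Slc25a47 and Slc25a29 stand back to back with 162 bases between them. Slc25a23 lies 2056 bases from Slc25a41, Slc25a24 lies 6461 bases from Slc25a54, and Slc25a5 lies 18448 bases from Slc25a43. The table also lists Slc25a5-ps, at 0 counts in all libraries.

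Libraries held 1617761 to 3028951 counts, and members took 0.235% to 0.376% of them, with 36 to 43 members detected per library. Values are given as CPM, the count of a gene over the library's total in units of 1000000, after TMM scaling, which aligns libraries on the bulk of their genes. Reads came from near the 3′ end of each transcript and were not divided by transcript length. The targeted gene Yap1 had 40.3, 61.9 and 71.8 CPM in ctrl, 53.5, 50.6 and 65.7 in ctrl + CCl4, 22.2, 9.65 and 14.9 in Yap/Taz KO and 14.8, 14.2 and 14.4 in Yap/Taz KO + CCl4, with no overlap between genotypes. Wwtr1, the gene of TAZ, had 57.6, 24.2 and 34.8 CPM in ctrl, 33.7, 32.6 and 34.8 in ctrl + CCl4, 15.7, 10.1 and 18.3 in Yap/Taz KO and 25.3, 19.9 and 24.8 in Yap/Taz KO + CCl4, with no overlap between genotypes within an injury state. Neither passed edgeR's test (adjusted p = 0.102 and 0.0995 for Yap1 and 0.235 and 0.983 for Wwtr1, without and after injury), and whether the counted tags lie in the deleted part is not stated. Summed over 9 of 10 hepatocyte markers in the table, libraries had 130380 to 166827 CPM in ctrl, 74511 to 93389 in ctrl + CCl4, 149940 to 179190 in Yap/Taz KO and 108382 to 128040 in Yap/Taz KO + CCl4. ctrl replicate 1 stood apart from the other ctrl libraries in markers of other cell types. Its macrophage sum was 2536 CPM against 462 and 553, its endothelial sum 1603 against 399 and 581, and its erythroid sum 1586 against 19.6 and 154.

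The filter asked for 3.93 CPM, before TMM scaling, in at least 3 libraries, and 13 members did not pass it and were not tested. Of these, Slc25a18 (a glutamate carrier), Slc25a41 (an ATP-Mg carrier) and Slc25a54 had 0 of 30304323 counts, which allows a level of up to 0.099 CPM, for counting error only. The other 10 (Slc25a2, Slc25a26, Slc25a27, Slc25a29, Slc25a30, Slc25a31, Slc25a34, Slc25a35, Slc25a43 and Slc25a53) had 1 to 63 counts over all libraries. Slc25a29, a carrier of basic amino acids, ranged from 0 to 5.54 CPM, and Slc25a34, an orphan carrier, from 0 to 7.72 CPM with its highest values in Yap/Taz KO replicates 2 and 3. Slc25a26, the carrier of S-adenosylmethionine, ranged from 0.733 to 4.19 CPM.

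Of the 34 tested members, 27 were above that level in every library. Slc25a15, Slc25a3 and Slc25a39 had the highest mean CPM in ctrl, and together they made up 41% to 43.3% of the family's CPM in ctrl libraries and 39.1% to 50.5% over the other groups. Slc25a3, the phosphate carrier, had 416, 445 and 641 CPM in ctrl, 385, 300 and 415 in ctrl + CCl4, 438, 456 and 491 in Yap/Taz KO and 423, 453 and 554 in Yap/Taz KO + CCl4. Slc25a39, a carrier needed for glutathione import, had 488, 475 and 531 CPM in ctrl, 387, 459 and 448 in ctrl + CCl4, 497, 674 and 535 in Yap/Taz KO and 435, 467 and 613 in Yap/Taz KO + CCl4. Neither passed the test in any comparison.

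The summed level of the family was lower after injury in CPM. It was 3604 ± 597 CPM (SD, n = 3) in ctrl and 2201 ± 185 (n = 3) in ctrl + CCl4, and 4028 ± 725 (n = 3) in Yap/Taz KO and 2744 ± 399 (n = 3) in Yap/Taz KO + CCl4. The 3 injured libraries lay below the 3 uninjured libraries in both genotypes. As an unscaled share of counts the ranges overlapped, at 0.289% to 0.368% and 0.235% to 0.313% in controls and 0.283% to 0.376% and 0.267% to 0.351% in knockouts. The hepatocyte marker sum was lower in injured libraries as well, with 6 of 9 markers called lower in controls and 2 of 9 in knockouts and none called higher. Alb made up much of that sum (78300, 59511 and 88686 CPM in ctrl), while Fgb and Ahsg were called in neither response. The part of hepatocyte RNA in the family's level was not tested. In bulk samples such as these, fewer cells of a type and less RNA per cell cannot be told apart.

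**Figure D1:**
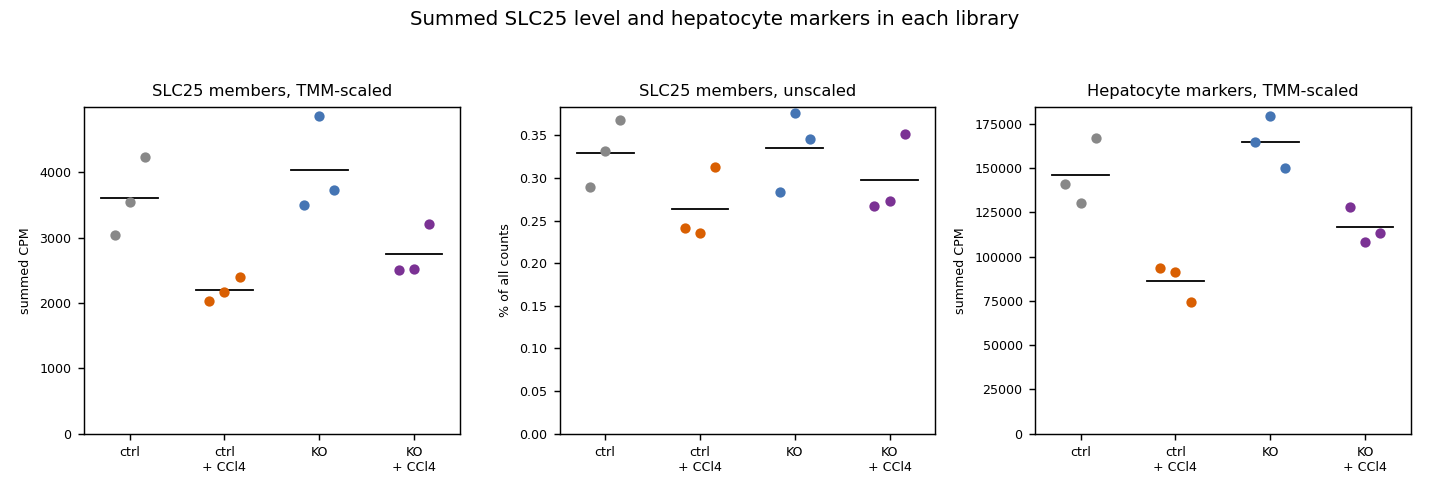
Points are the 12 libraries by group (KO is Yap/Taz KO) and lines are group means. The y axes show the summed CPM of the 47 SLC25 members, their percentage of all counts without scaling, and the summed CPM of 9 hepatocyte markers. In CPM the injured libraries sit below the uninjured ones in both genotypes, while the percentages overlap.

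In controls, 2 of the 34 tested members were higher after injury (5.88%) and 9 were lower (26.5%) in edgeR's quasi-likelihood test with Benjamini-Hochberg adjustment at 0.05. Of all 10780 genes tested, 10.5% were higher and 12% were lower. In knockouts, 2 members were higher (5.88%) and 10 were lower (29.4%), against 9.42% and 8.35% of all genes. The median log2 fold change of the members was -0.55 in controls and -0.38 in knockouts, against 0.03 over all genes in each. In each response 25 of 34 members had a fold change below 0 (73.5%), against 48.3% of all genes. Members and all genes are compared here by counts and medians only.

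The balance of calls depends on the scaling. Scaling by library totals in place of TMM moved the median of all genes up by 0.37 on the log2 scale in both responses. With totals, 2 members were higher and 6 lower in controls (1974 and 698 of all genes), and 2 higher and 3 lower in knockouts (1814 and 406 of all genes). No called member changed direction under totals or under any other alternative, but 10 of the 23 calls were lost with totals. A fold change here is thus a change against the average gene of the table.

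Both responses share no library. Of the 16 members called in either, 7 were called in both with the same sign: Slc25a4 and Slc25a24 rose, and Slc25a1, Slc25a15, Slc25a23, Slc25a44 and Slc25a47 fell. These are 63.6% of the control calls and 58.3% of the knockout calls, against 55.1% and 69.8% for all genes. The sign matched in 30 of 34 members (88.2%), against 71.9% of all genes. A further 4 members passed the test in controls and not in knockouts, and 5 passed it in knockouts and not in controls. None of these passed the test of the difference between the responses, given further on.

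**Figure D2:**
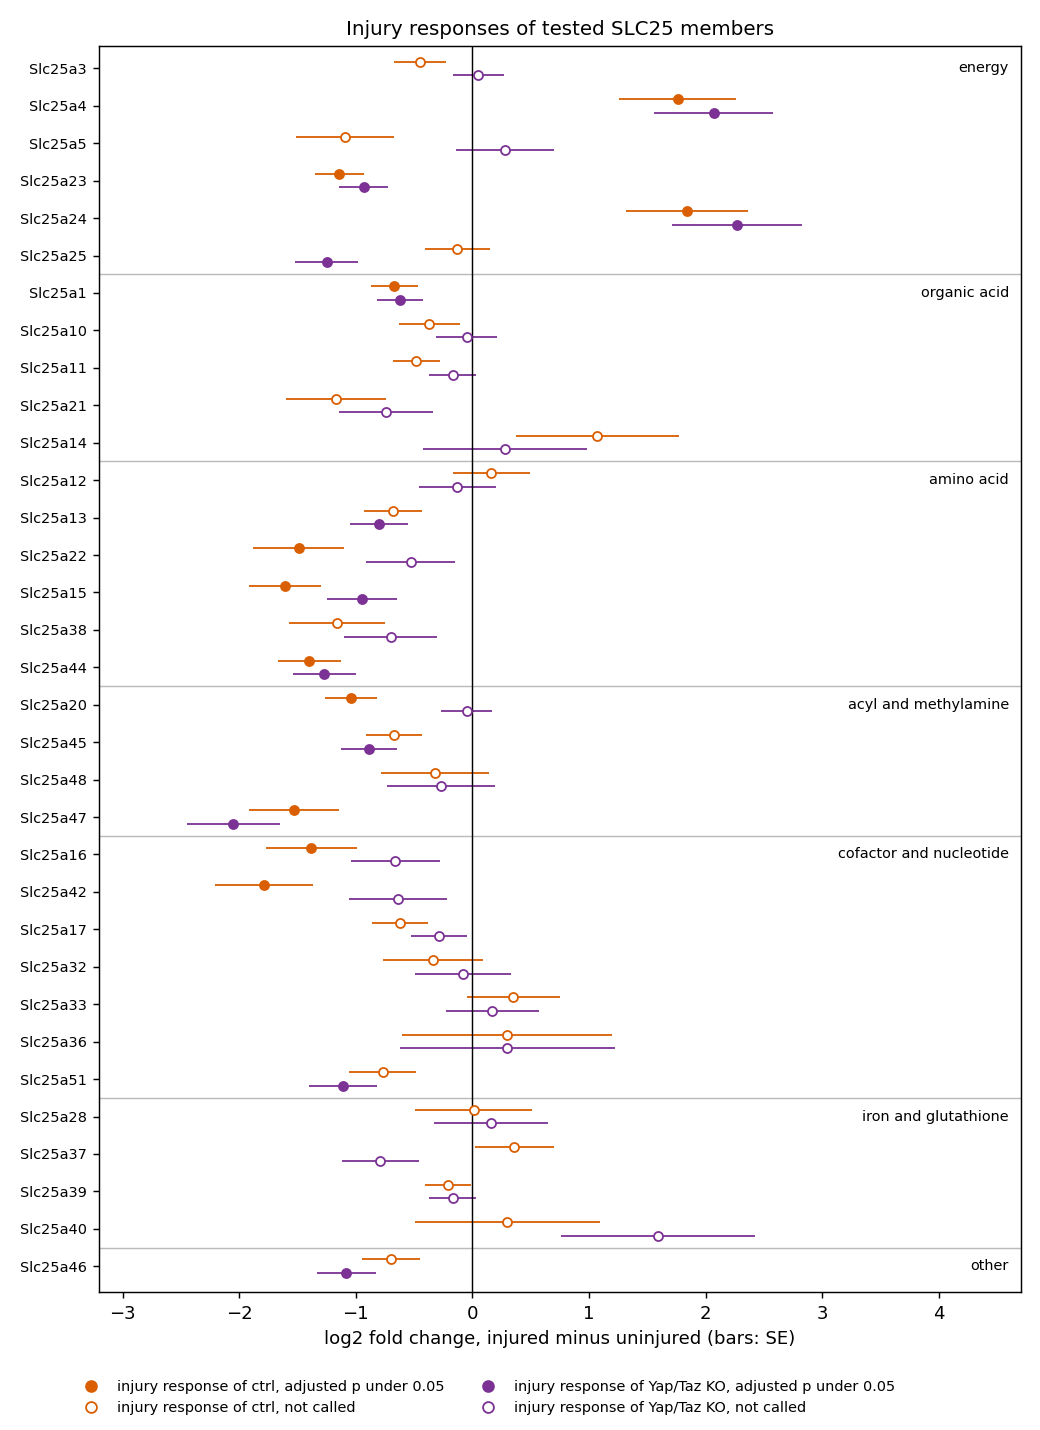
Log2 fold change, injured minus uninjured, of 33 tested members in controls (orange) and Yap/Taz KO (purple), with bars for the SE and grey lines between role groups. Filled points passed an adjusted p of 0.05: 2 members lie to the right and 9 to the left in controls, and 2 to the right and 10 to the left in knockouts.

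Carriers of adenine nucleotides and phosphate moved in opposite directions. Of 8 members in this group 6 were tested, and 2 rose and 1 fell in controls while 2 rose and 2 fell in knockouts. Slc25a4 (chr8:46206797-46211284, minus strand), the ADP/ATP exchanger known best from heart and muscle, had 35.8, 7.05 and 9.95 CPM in ctrl and 68.9, 48.8 and 67 in ctrl + CCl4. Knockout libraries had 21.1, 4.83 and 14.9 CPM of it without injury and 61.2, 55.9 and 54.3 after it. Every injured library was above every uninjured library. The log2 fold change was 1.76 ± 0.50 (SE, 3.38-fold, edgeR adjusted p = 0.0197) in controls and 2.07 ± 0.51 (4.21-fold, adjusted p = 0.0115) in knockouts. Slc25a24 (chr3:109123149-109168457, plus strand) is a calcium-regulated ATP-Mg/phosphate exchanger that sets the adenine nucleotide pool of the matrix. It had 17.3, 3.52 and 2.84 CPM in ctrl, 29.3, 21.4 and 39 in ctrl + CCl4, 5.96, 5.31 and 2.56 in Yap/Taz KO and 25.9, 21.5 and 18.8 in Yap/Taz KO + CCl4. Again no injured library overlapped an uninjured one. Its log2 fold change was 1.84 ± 0.52 (3.57-fold, edgeR adjusted p = 0.0199) in controls and 2.27 ± 0.56 (4.82-fold, adjusted p = 0.0115) in knockouts. Slc25a24 exceeded the filter's 3.93 CPM in all 6 injured libraries but in 1 ctrl and 2 Yap/Taz KO libraries.

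The control calls of these risers were lost when certain single libraries were left out, though the fold changes stayed above 0. Without ctrl replicate 1, the ctrl library highest in both genes, the log2 fold change was 2.87 for Slc25a4 (edgeR adjusted p = 0.000274) and 3.19 for Slc25a24 (adjusted p = 0.00018). The Slc25a4 call in controls was lost without ctrl replicate 2 or 3 or ctrl + CCl4 replicate 1 or 3 (log2 fold change 1.38 to 1.70, adjusted p = 0.0593 to 0.0737). The Slc25a24 call in controls was lost without ctrl replicate 2 or 3 or ctrl + CCl4 replicate 3 (1.47 to 1.61, adjusted p = 0.0644 to 0.0869) and in a fit of the 6 samples compared (1.83, adjusted p = 0.0603). Its knockout call was lost without Yap/Taz KO replicate 3 (1.96, adjusted p = 0.0536). The knockout call of Slc25a4 held in all 18 alternatives.

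Marker sums of several other liver cell types tended to be higher in injured libraries. In controls the stellate and macrophage sums overlapped between injured and uninjured libraries, unlike Slc25a4 and Slc25a24. The sum over all 9 stellate cell and fibroblast markers was 216 to 797 CPM in ctrl, 726 to 1599 in ctrl + CCl4, 211 to 573 in Yap/Taz KO and 1189 to 1396 in Yap/Taz KO + CCl4, and 4 of 9 markers were called higher in controls and 5 of 9 in knockouts. The sum over all 10 macrophage and Kupffer cell markers was 462 to 2536 CPM in ctrl, 1913 to 2773 in ctrl + CCl4, 209 to 1006 in Yap/Taz KO and 1510 to 2368 in Yap/Taz KO + CCl4, with 2 and 3 of 10 called higher. The sum of 8 monocyte and neutrophil markers went from 54.9 to 126 CPM in ctrl to 740 to 904 in ctrl + CCl4, and from 29 to 39 CPM in Yap/Taz KO to 713 to 1141 in Yap/Taz KO + CCl4, and 4 of 7 tested markers were called higher in controls and 7 of 7 in knockouts. Of that sum Lcn2, which hepatocytes also make, had 562, 591 and 629 CPM in ctrl + CCl4 and 612, 986 and 555 in Yap/Taz KO + CCl4. None of 8 sinusoidal endothelial markers was called in either response, and their sums were 399 to 1603 CPM in ctrl, 633 to 755 in ctrl + CCl4, 310 to 821 in Yap/Taz KO and 674 to 893 in Yap/Taz KO + CCl4. The ctrl library with the most Slc25a4 and Slc25a24, replicate 1, also had the highest macrophage and stellate sums of that group. It was highest there in the endothelial, erythroid and cell division sums as well. In Yap/Taz KO, replicate 1 had the most of both carriers and the highest macrophage sum. The stellate sum of Yap/Taz KO was highest in replicate 3, at 573 CPM against 321 and 211. Sums of 10 cell division genes went from 22.1 to 103 CPM to 1316 to 1575 in controls and from 13.5 to 27.6 CPM to 918 to 1248 in knockouts. The part of these cells in the rise of both carriers was not tested.

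**Figure D3:**
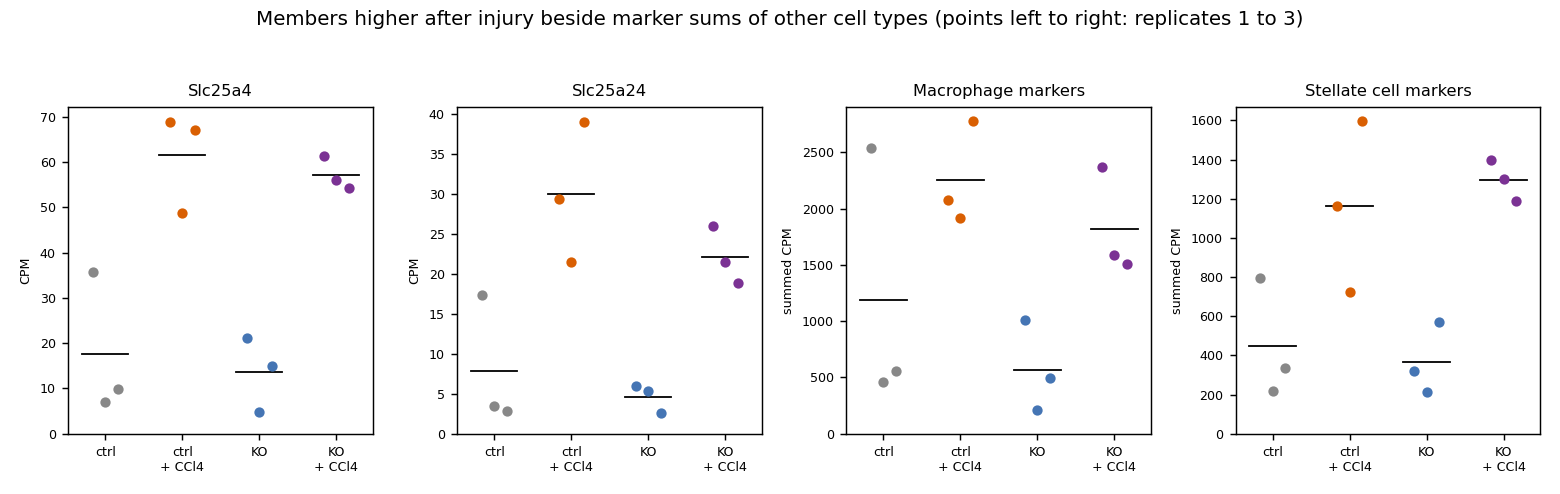
CPM of Slc25a4 and Slc25a24 and the summed CPM of 10 macrophage and 9 stellate cell markers, by group; points are replicates 1 to 3 from left to right and lines are group means. ctrl replicate 1 is the highest ctrl library in all 4 panels, with 35.8 CPM of Slc25a4 and 17.3 CPM of Slc25a24. In Yap/Taz KO the stellate sum is highest in replicate 3, and the other panels are highest in replicate 1.

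None of the other members of this group rose. Slc25a5 (chrX:36795651-36798807, plus strand), the ADP/ATP exchanger of most proliferating cells, had 60.5, 97.6 and 177 CPM in ctrl, 58.6, 28.1 and 69.9 in ctrl + CCl4, 73.1, 65.6 and 30.2 in Yap/Taz KO and 51.1, 78 and 75.4 in Yap/Taz KO + CCl4. Its groups overlapped and neither response passed the test. Slc25a23 (chr17:57043711-57059863, minus strand), a paralog of Slc25a24 with the same substrates, had 167, 208 and 210 CPM in ctrl and 73.6, 107 and 84.7 in ctrl + CCl4. The knockout values were 221, 217 and 175 CPM without injury and 115, 113 and 94.8 after it. It fell by 1.14 ± 0.21 on the log2 scale (edgeR adjusted p = 0.00133) in controls and by 0.93 ± 0.21 (adjusted p = 0.00671) in knockouts, with no overlap. Its knockout call was lost with library totals (-0.54, adjusted p = 0.0643).

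Slc25a25 (chr2:32414487-32451445, minus strand), a further calcium-regulated ATP-Mg/phosphate exchanger, had 65.8, 72 and 58.3 CPM in ctrl and 52.7, 69.9 and 57 in ctrl + CCl4, which overlap. In Yap/Taz KO it had 214, 130 and 138 CPM, above all other libraries, and in Yap/Taz KO + CCl4 it had 76.7, 41.7 and 83.8. In knockouts it fell by 1.25 ± 0.27 on the log2 scale after injury (2.38-fold, edgeR adjusted p = 0.00567), a call that held in all 18 alternatives. After injury its knockout values overlapped those of controls. Of its 3 RefSeq promoter windows, 2 hold GGAATG and 1 holds TGACGTCA. An exon of Slc25a25 overlaps Naif1 on the opposite strand, as one of Slc25a23 overlaps Gm17168. Of the other members given in detail, Slc25a10 (with Gm11788), Slc25a37 (with Gm27223 and Gm31748) and Slc25a46 also have such an overlap. No source used here says whether the counting used strand, so reads of such pairs cannot be told apart.

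Among 9 carriers of di- and tricarboxylic acids and their relatives, 5 were tested and only Slc25a1 was called in either response. Slc25a1 (chr16:17925223-17928219, minus strand) exports citrate to the cytosol as the carbon source of fatty acids. It had 146, 143 and 160 CPM in ctrl, 80.9, 103 and 98.9 in ctrl + CCl4, 140, 178 and 157 in Yap/Taz KO and 118, 81.8 and 109 in Yap/Taz KO + CCl4. Injured and uninjured libraries did not overlap in either genotype. It fell by 0.67 ± 0.20 on the log2 scale (1.59-fold, edgeR adjusted p = 0.0286) in controls and by 0.62 ± 0.20 (1.54-fold, adjusted p = 0.0471) in knockouts. Both calls are near the threshold. The control call was lost without ctrl replicate 2 or 3 or any ctrl + CCl4 library (-0.70 to -0.56, adjusted p = 0.0514 to 0.123), and also with library totals (-0.29, adjusted p = 0.333), no low-count filter (-0.64, adjusted p = 0.111) or a fit of the 6 samples compared (-0.68, adjusted p = 0.0572). The knockout call was lost in 15 of 18 alternatives, among them leaving out ctrl replicate 2, any ctrl + CCl4 library or any knockout library (-0.73 to -0.48, adjusted p = 0.0504 to 0.183), and library totals (-0.25, adjusted p = 0.441).

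The dicarboxylate carrier Slc25a10 (chr11:120491840-120499187, plus strand), which trades malate and succinate for phosphate, had 79, 72.5 and 136 CPM in ctrl and 69.6, 71.4 and 80.2 in ctrl + CCl4. The knockouts had 76.9, 92.2 and 119 CPM and then 93.8, 78 and 107. Its groups overlapped throughout. The malate/oxoglutarate carrier Slc25a11 ranged from 49.4 to 97 CPM over all libraries. Slc25a21, the oxoadipate carrier of lysine breakdown, ranged from 2.75 to 21.7 CPM. Slc25a14, a relative of the uncoupling proteins, ranged from 0.503 to 6.71 CPM and passed the filter through 3 ctrl + CCl4 and 2 Yap/Taz KO + CCl4 libraries.

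No carrier of amino acids rose and several fell. Of 9 members 6 were tested and 3 fell in each response, with median log2 fold changes of -1.28 in controls and -0.75 in knockouts. Slc25a15 (chr8:22375551-22398597, minus strand) brings ornithine into the matrix for the urea cycle. It had 414, 529 and 574 CPM in ctrl and 135, 144 and 219 in ctrl + CCl4, and fell by 1.61 ± 0.31 on the log2 scale (3.04-fold, edgeR adjusted p = 0.00172), a call kept in all 18 alternatives. In knockouts it had 435, 800 and 572 CPM and then 257, 227 and 452, so that 1 injured library lay above the lowest uninjured one. It fell there by 0.95 ± 0.30 (1.93-fold, adjusted p = 0.0414). That call was lost without ctrl + CCl4 replicate 1, Yap/Taz KO replicate 2 or 3, or Yap/Taz KO + CCl4 replicate 1 or 2 (-0.99 to -0.69, adjusted p = 0.0524 to 0.191), and with library totals (-0.56, adjusted p = 0.219).

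Slc25a44 (chr3:88410498-88425139, minus strand), a carrier of branched-chain amino acids, had 121, 188 and 259 CPM in ctrl, 61.5, 81.1 and 71.8 in ctrl + CCl4, 142, 210 and 244 in Yap/Taz KO and 79.9, 86.3 and 81.6 in Yap/Taz KO + CCl4. The uninjured libraries were spread widely and the injured ones closely, without overlap. It fell by 1.40 ± 0.27 on the log2 scale (2.64-fold, edgeR adjusted p = 0.00205) in controls and by 1.27 ± 0.27 (2.41-fold, adjusted p = 0.0049) in knockouts. It was the only member whose call held in all 18 alternatives in both genotypes.

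Slc25a22 (chr7:141429744-141437892, minus strand), a glutamate carrier, had 130, 114 and 204 CPM in ctrl and 44.7, 29.9 and 84.7 in ctrl + CCl4. It fell by 1.49 ± 0.39 on the log2 scale (2.80-fold, edgeR adjusted p = 0.0125), and the call was lost without ctrl replicate 3 or ctrl + CCl4 replicate 1 or 2 (-1.35 to -1.16, adjusted p = 0.0583 to 0.0602) and with library totals (-1.06, adjusted p = 0.0603). Among knockouts the values were 151, 204 and 92.8 CPM and then 98.8, 75.5 and 136, which overlap. Slc25a13 (chr6:6041218-6217173, minus strand) is citrin, the liver aspartate/glutamate carrier of the malate-aspartate shuttle. It had 191, 287 and 263 CPM in ctrl and 140, 151 and 173 in ctrl + CCl4, which do not overlap but did not pass the test. In knockouts it had 270, 455 and 307 CPM and then 158, 190 and 246, and fell by 0.80 ± 0.25 on the log2 scale (1.74-fold, edgeR adjusted p = 0.0381). This call was lost without ctrl + CCl4 replicate 1 or 3, Yap/Taz KO replicate 2 or 3, or Yap/Taz KO + CCl4 replicate 1 or 2 (-0.87 to -0.55, adjusted p = 0.051 to 0.197), and with library totals (-0.41, adjusted p = 0.271). Its paralog Slc25a12, the form of muscle and brain, ranged from 16 to 34.2 CPM, and Slc25a38, a glycine carrier needed for heme synthesis, from 6.96 to 26.2 CPM; neither was called.

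Of the 4 carriers of acylcarnitines and methylamines, all tested, 2 fell in each response. Slc25a47 (chr12:108836046-108856815, plus strand) is a liver-enriched carrier whose substrate is debated. It had 174, 256 and 360 CPM in ctrl, 67.8, 109 and 96 in ctrl + CCl4, 227, 678 and 249 in Yap/Taz KO and 72, 107 and 98.6 in Yap/Taz KO + CCl4. Yap/Taz KO replicate 2 stood far above the others of its group, and injured and uninjured libraries did not overlap. It fell by 1.53 ± 0.39 on the log2 scale (2.89-fold, edgeR adjusted p = 0.0113) in controls and by 2.05 ± 0.40 (4.15-fold, adjusted p = 0.00239) in knockouts. Without Yap/Taz KO replicate 2 the knockout value was -1.36 and still called. The control call was lost without ctrl replicate 3 or ctrl + CCl4 replicate 1 (-1.34 to -1.24, adjusted p = 0.0538 to 0.056). The RefSeq window printed above lies within the GENCODE gene span, and the microRNA gene Mir345 overlaps an exon on the same strand.

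Slc25a20 (chr9:108662088-108684641, plus strand), the carnitine/acylcarnitine translocase that brings long-chain fatty acids to oxidation, had 74.5, 77 and 119 CPM in ctrl and 51.3, 39 and 40.6 in ctrl + CCl4. It fell by 1.04 ± 0.22 on the log2 scale (2.06-fold, edgeR adjusted p = 0.00385), a call that held in all 18 alternatives. In knockouts it had 87.7, 84.4 and 74.5 CPM without injury and 76.7, 85.3 and 75.4 after it, and these ranges overlap almost wholly. Slc25a45 (chr19:5877808-5885878, plus strand), a carrier of methylated amines, had 32.5, 36.7 and 33.4 CPM in ctrl, 15.7, 25 and 23.5 in ctrl + CCl4, 39.5, 37.2 and 37.5 in Yap/Taz KO and 21.5, 22.1 and 17.9 in Yap/Taz KO + CCl4. No injured library reached an uninjured one in either genotype. It fell by 0.89 ± 0.24 on the log2 scale in knockouts (1.85-fold, edgeR adjusted p = 0.0181) and did not pass the test in controls. The knockout call was lost without Yap/Taz KO + CCl4 replicate 1 or 3 (-0.92 to -0.81, adjusted p = 0.0583 to 0.075), with library totals (-0.52, adjusted p = 0.16) and without the low-count filter (-0.89, adjusted p = 0.0633). Slc25a48, a choline carrier, ranged from 9.16 to 28.4 CPM.

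Among 9 carriers of cofactors and nucleotides, 8 were tested. Of these, Slc25a42 and Slc25a16 were called lower in controls. Slc25a42 (chr8:70184340-70212305, minus strand), which imports coenzyme A, had 21.8, 24.2 and 40.5 CPM in ctrl and 10.6, 7.93 and 6.12 in ctrl + CCl4. Its change was -1.79 ± 0.42 on the log2 scale (3.47-fold lower, edgeR adjusted p = 0.00708) and held in all 18 alternatives. Knockouts had 24.9, 15.4 and 10.2 CPM and then 10.7, 14.8 and 6.59, which overlap. Slc25a16 (chr10:62920633-62946498, plus strand), linked to coenzyme A transport, had 18.9, 48.3 and 60.4 CPM in ctrl and 9.52, 22 and 16.8 in ctrl + CCl4. It fell by 1.38 ± 0.39 (2.6-fold, adjusted p = 0.0185) although ctrl replicate 1 lay within the injured range. That call was lost without ctrl replicate 2 or 3 or ctrl + CCl4 replicate 1 or 3 (-1.40 to -1.04, adjusted p = 0.0536 to 0.0893), with library totals (adjusted p = 0.0681) and in a fit of the 6 samples compared (-1.40, adjusted p = 0.0635). In knockouts Slc25a16 had 28.2, 33.8 and 37.9 CPM and then 18.3, 23.7 and 21.4, without overlap and without passing the test.

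Slc25a51 (chr4:45395923-45408766, minus strand), the mitochondrial NAD carrier, had 88, 83.5 and 56.9 CPM in ctrl, 39.6, 47 and 47.4 in ctrl + CCl4, 63.9, 114 and 84.7 in Yap/Taz KO and 44.8, 25.3 and 51.8 in Yap/Taz KO + CCl4. Injured libraries lay below uninjured ones in both genotypes. It fell by 1.11 ± 0.29 on the log2 scale in knockouts (2.16-fold, edgeR adjusted p = 0.0159) and was not called in controls. The knockout call was lost without replicate 2 of Yap/Taz KO or of Yap/Taz KO + CCl4 (-0.87 to -0.86, adjusted p = 0.074 to 0.0863), and with library totals (-0.73, adjusted p = 0.101). The small RNA gene Gm25692 overlaps it on the same strand. No other tested member of this group was called in any comparison. Slc25a17, the peroxisomal cofactor carrier, ranged from 24.8 to 49.8 CPM, Slc25a32 (folate and FAD) from 4.58 to 11.1, and the pyrimidine nucleotide carriers Slc25a33 and Slc25a36 from 8.52 to 24.5 and from 0 to 11.5.

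None of the 4 carriers of iron and glutathione was called. Slc25a37 (chr14:69241848-69285112, minus strand), mitoferrin-1, the iron importer known from red cell precursors, had 16.5, 30.7 and 18.5 CPM in ctrl, 19.8, 37.2 and 27.1 in ctrl + CCl4, 33, 38.6 and 55.8 in Yap/Taz KO and 26.2, 17.7 and 30.1 in Yap/Taz KO + CCl4. The library with the highest erythroid marker sum, ctrl replicate 1 at 1586 CPM, had the least Slc25a37. Its 16.5 CPM was close to the 17.7 of Yap/Taz KO + CCl4 replicate 2 and the 18.5 of ctrl replicate 3. The part of red cell precursors in the level of Slc25a37 was not tested. Slc25a28, mitoferrin-2 of other tissues, ranged from 6.39 to 26.7 CPM. Slc25a40, a paralog of Slc25a39, ranged from 0.483 to 5.69 CPM and exceeded the filter's 3.93 CPM in 1 library each of ctrl, ctrl + CCl4 and Yap/Taz KO + CCl4.

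Slc25a46, an outer membrane member that acts in mitochondrial fission and not as a known transporter, had 43.6, 47.8 and 41.2 CPM in ctrl, 20.9, 36.6 and 23.8 in ctrl + CCl4, 46, 63.2 and 46.8 in Yap/Taz KO and 23, 25.6 and 25.1 in Yap/Taz KO + CCl4. The groups did not overlap in either genotype. It fell by 1.08 ± 0.25 on the log2 scale in knockouts (2.11-fold, edgeR adjusted p = 0.00769) and was not called in controls. The knockout call was lost with library totals (-0.70, adjusted p = 0.0527).

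**Figure D4:**
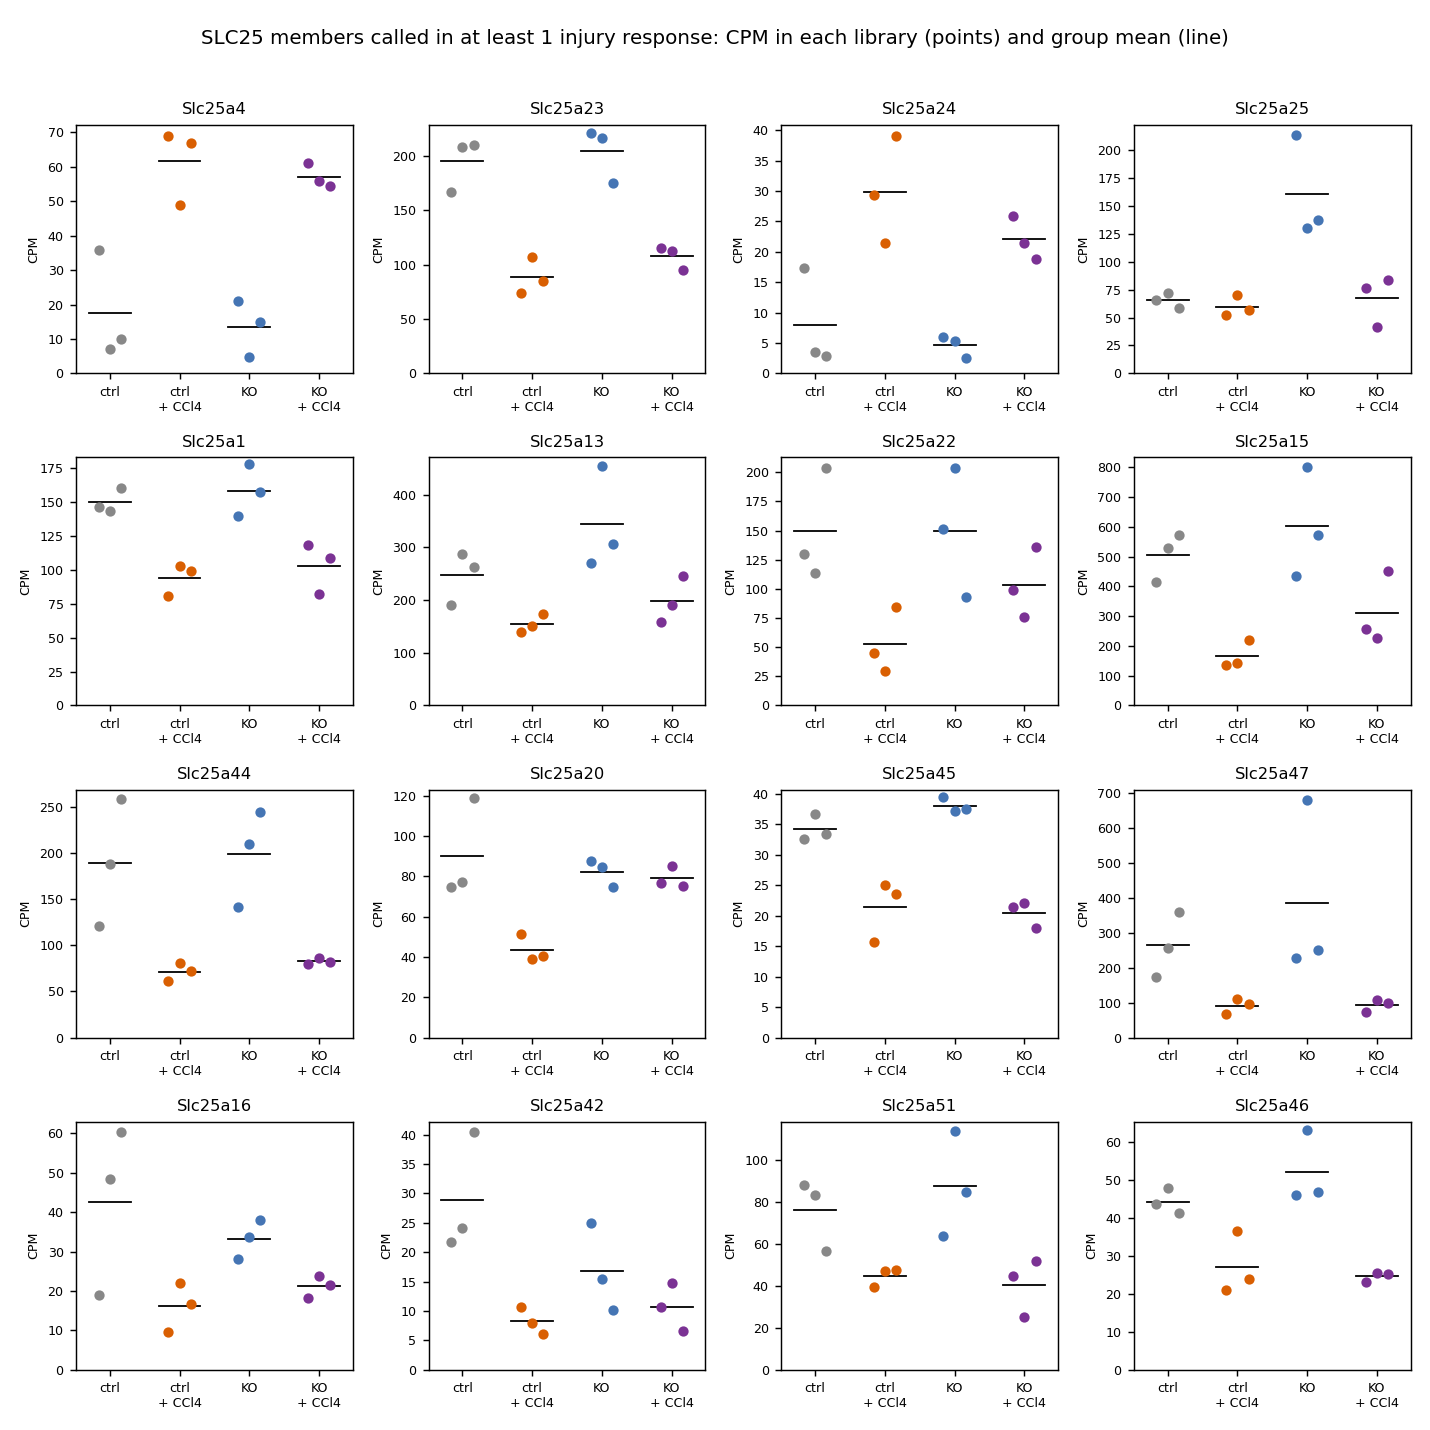
CPM of the 16 members called in at least 1 injury response, by group (KO is Yap/Taz KO); points are libraries, lines are group means and every y axis starts at 0. Slc25a4 and Slc25a24 are higher after injury in both genotypes, while Slc25a25 stands out in uninjured knockouts at 130 to 214 CPM.

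In the knockout contrasts and the interaction, edgeR with the low-count filter called no member. Without injury it called 0 of 34 members and 0% of all genes, and 3 members had an unadjusted p under 0.05, against 9.46% of all genes. DESeq2 called 1 of the 33 members it gave an adjusted p, Slc25a25, against 0.366% of all genes. After injury edgeR called 0 members and 0% of genes, with 4 members at an unadjusted p under 0.05, against 5.69% of genes. DESeq2 gave an adjusted p to only 963 genes there and called 25 of them (2.6%). It called 0 of the 6 members among those genes. For the difference between the injury responses edgeR called 0 members and 0% of genes, with 4 members at an unadjusted p under 0.05, against 8.11% of genes. DESeq2 called 0 of 35, against 0.0996% of genes. Library totals moved the median of all genes by -0.14 in both knockout contrasts. The members named next were chosen after their values were seen. A missed threshold does not show that the genotypes were alike, since the SE of the members' knockout effects ranged up to 0.94 on the log2 scale.

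Slc25a25 had the smallest adjusted p of the members without injury. It was 1.29 ± 0.28 higher on the log2 scale in Yap/Taz KO than in ctrl (2.45-fold, edgeR adjusted p = 0.22), and all 3 knockout libraries, at 130 to 214 CPM, lay above the ctrl libraries, at 58.3 to 72. DESeq2 gave an adjusted p of 0.00953, and edgeR without the low-count filter gave 0.00108. That unfiltered fit called 75 genes higher and 135 lower of 19259, where the filtered fit called 0. Slc25a37 differed by 0.96 ± 0.34 (edgeR adjusted p = 0.439) and its groups did not overlap. Slc25a5 differed by -0.98 ± 0.42 (edgeR adjusted p = 0.488), with overlapping groups, and by -0.49 without ctrl replicate 3. The interaction, the knockout's injury response minus that of controls, was -1.12 ± 0.39 for Slc25a25 (edgeR adjusted p = 0.552), -1.14 ± 0.47 for Slc25a37 (adjusted p = 0.594) and 1.37 ± 0.59 for Slc25a5 (adjusted p = 0.594, or 0.87 on the log2 scale without ctrl replicate 3).

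After injury, 22 of the 34 tested members had a fold change above 0 in knockouts against controls, as had 5295 of all 10780 genes. The 4 with an unadjusted p under 0.05 in edgeR's test are given here. All 4 were higher in knockouts, and none passed the adjusted test. Slc25a20 had 76.7, 85.3 and 75.4 CPM in Yap/Taz KO + CCl4 and 51.3, 39 and 40.6 in ctrl + CCl4, a difference of 0.86 ± 0.22 on the log2 scale (edgeR adjusted p = 0.706). These groups did not overlap, and the interaction for Slc25a20 was 0.99 ± 0.31 (adjusted p = 0.533). Slc25a15 had 257, 227 and 452 CPM against 135, 144 and 219, also without overlap, a difference of 0.91 ± 0.30 (adjusted p = 0.803). Without Yap/Taz KO + CCl4 replicate 3 that difference was 0.55. Slc25a21 differed by 0.99 ± 0.42 (adjusted p = 0.852), and by 0.65 without ctrl + CCl4 replicate 2 or 0.63 without Yap/Taz KO + CCl4 replicate 2. Slc25a22 differed by 0.96 ± 0.38 (adjusted p = 0.844), and by 1.47 without ctrl + CCl4 replicate 3. The hepatocyte marker sum was also higher in injured knockouts, at 108382 to 128040 CPM, than in injured controls, at 74511 to 93389, and its part in these differences was not tested.

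**Figure D5:**
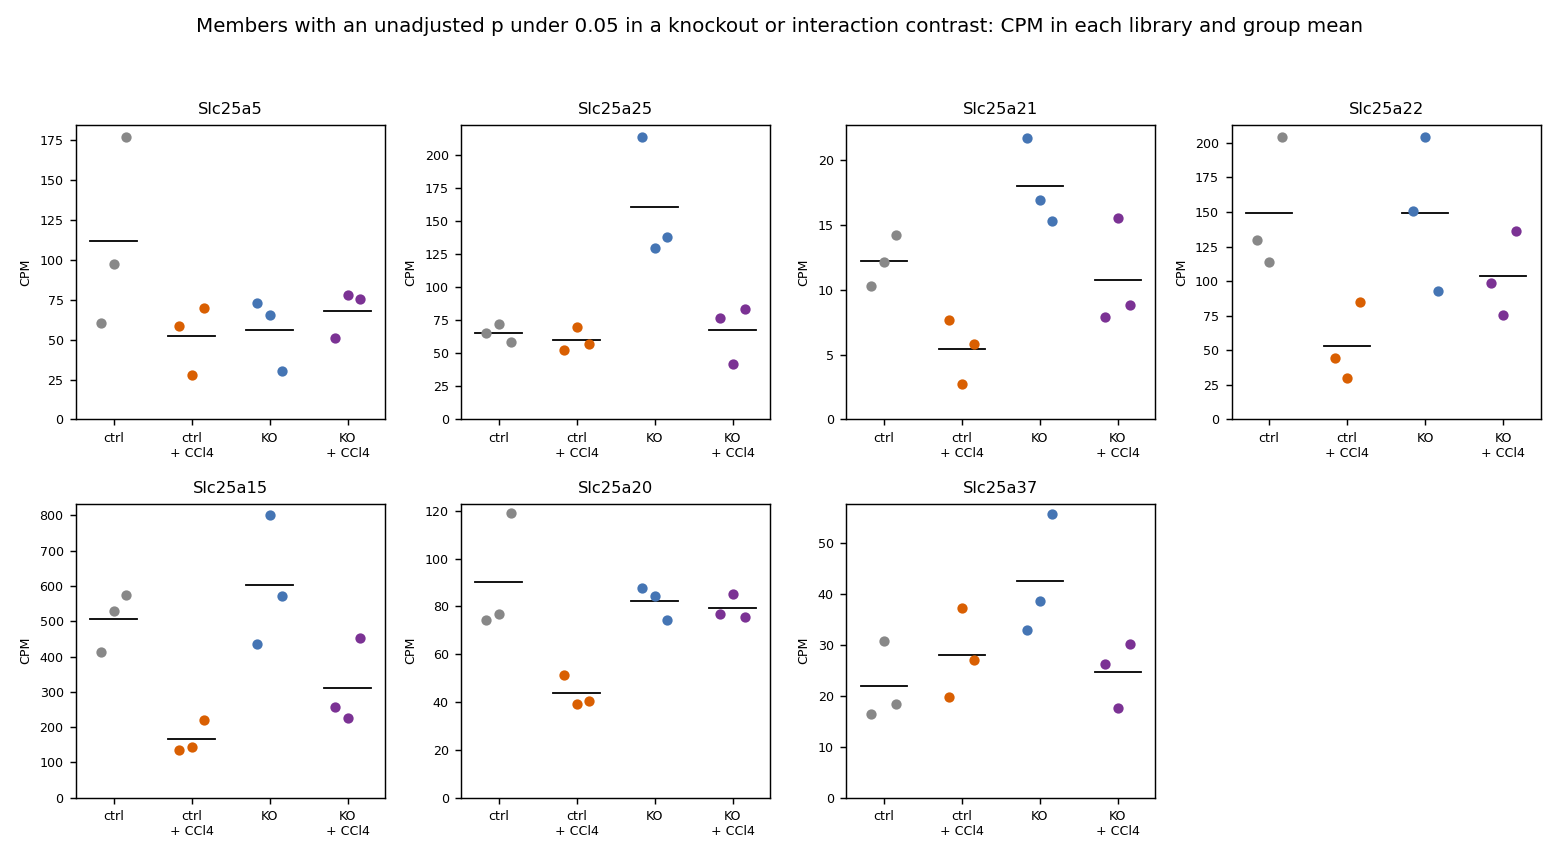
CPM of the 7 members with an unadjusted p under 0.05 in a knockout or interaction contrast, by group (KO is Yap/Taz KO), with points for libraries and lines for group means. None passed edgeR's adjusted threshold; Slc25a25 is at 130 to 214 CPM in uninjured knockouts and 58.3 to 72 in ctrl, and Slc25a20 is at 39 to 51.3 CPM in ctrl + CCl4 and 75.4 to 85.3 in Yap/Taz KO + CCl4.

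Enzymes that work with the carriers were counted in lists of partner genes. Over all genes tested 12% were lower in controls and 8.35% in knockouts, so that 1 call in a list of 5 to 8 genes is near or little above that share. For the ornithine carrier's pathway, all 5 urea cycle genes were lower in controls and 3 of 5 in knockouts. Otc, which acts on the imported ornithine, fell by 2.54 ± 0.24 on the log2 scale in controls (edgeR adjusted p = 7.6e-06) and by 1.96 ± 0.23 in knockouts (adjusted p = 5.72e-05). For the citrate carrier, 4 of 5 genes of citrate export and lipogenesis were lower in each genotype. Among them Me1, malic enzyme, fell by 1.54 ± 0.27 in controls (edgeR adjusted p = 0.000921) and by 1.78 ± 0.27 in knockouts (adjusted p = 0.000385). Fasn, fatty acid synthase, fell by 1.88 ± 0.38 (adjusted p = 0.00237) and by 2.16 ± 0.38 (adjusted p = 0.00123).

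For citrin's shuttle and the glycerol phosphate shuttle, 3 of 6 genes were lower in controls and 2 of 6 in knockouts. Got1, the cytosolic aspartate aminotransferase, fell by 2.70 ± 0.32 in controls (edgeR adjusted p = 3.66e-05) and by 2.14 ± 0.31 in knockouts (adjusted p = 0.000292). Of the carnitine shuttle, 2 of 5 tested genes were lower in each genotype, Cpt2, which rebuilds acyl-CoA behind the translocase, and Acadm, an acyl-CoA dehydrogenase. Acadm fell by 1.17 ± 0.24 in controls (edgeR adjusted p = 0.00276) and by 1.32 ± 0.24 in knockouts (adjusted p = 0.00153). Cpt2 fell by 0.77 ± 0.23 in controls (edgeR adjusted p = 0.026) and by 0.80 ± 0.23 in knockouts (adjusted p = 0.0257), where Slc25a20 itself had overlapping values. Of 7 tested ATP synthase subunits, 3 were lower in controls and 0 in knockouts. Of 6 glutathione genes, 1 was lower in controls and 2 in knockouts, among them Gpx1, a glutathione peroxidase, which fell by 1.73 ± 0.25 (edgeR adjusted p = 0.000205) and by 1.20 ± 0.25 (adjusted p = 0.00364).

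One-carbon, glycine and heme genes moved in both directions. In controls 2 of 8 were higher and 3 lower, and in knockouts 1 was higher and 2 lower. Gls2, the liver glutaminase, fell by 2.94 ± 0.31 in controls (edgeR adjusted p = 1.65e-05) and by 2.02 ± 0.30 in knockouts (adjusted p = 0.000373). Mthfd2, a mitochondrial folate enzyme counted at 0 to 1.62 CPM in Yap/Taz KO, rose by 2.84 ± 0.52 in controls (edgeR adjusted p = 0.00129) and by 4.55 ± 0.63 in knockouts (adjusted p = 0.000211). Glul, glutamine synthetase of pericentral hepatocytes, fell by 3.48 ± 0.31 in controls (edgeR adjusted p = 5.04e-06). In knockouts Glul fell by 3.68 ± 0.31 (edgeR adjusted p = 3.49e-06). The folate carrier Slc25a32 was called in neither.

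Family members that carry other symbols were kept apart from the counts above. Of 5 such genes 3 were tested. Ucp2, an uncoupling protein relative that carries metabolites, had 47.7, 15.1 and 17.1 CPM in ctrl, 85.7, 120 and 124 in ctrl + CCl4, 34.1, 10.1 and 22.6 in Yap/Taz KO and 98.2, 110 and 61.9 in Yap/Taz KO + CCl4. No injured library overlapped an uninjured one. Ucp2 rose by 2.02 ± 0.44 on the log2 scale in controls (edgeR adjusted p = 0.00438) and by 2.02 ± 0.45 in knockouts (adjusted p = 0.00593). As for Slc25a4 and Slc25a24, its highest ctrl library was replicate 1. Mtch2, an outer membrane member of the family, fell by 0.99 ± 0.23 in controls (adjusted p = 0.00671).

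The machinery around the carriers was read against the same shares of all genes, 12% and 8.35% lower and 10.5% and 9.42% higher. Of 11 tested genes for import of carriers, which pass the outer membrane and are guided to the inner membrane by small TIM chaperones, 1 was lower in controls and 1 was higher in knockouts. The chaperone Timm10 fell by 0.97 ± 0.29 in controls (edgeR adjusted p = 0.0261), and Timm8b rose by 1.14 ± 0.33 in knockouts (adjusted p = 0.0256). None of the 3 outer membrane channels of the VDAC type and none of 6 tested mitochondrially encoded genes was called. Of 11 tested transporters of the inner membrane from other families, 4 were lower in controls and 2 in knockouts. Sfxn5, a sideroflexin, fell by 2.03 ± 0.36 (adjusted p = 0.000915) and by 1.96 ± 0.35 (adjusted p = 0.00133), and Abcb10, an ABC transporter, by 1.13 ± 0.24 (adjusted p = 0.00388) and by 0.95 ± 0.24 (adjusted p = 0.0129). No gene of these partner lists was called in a knockout contrast or in the interaction.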

How the data were processed

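RNA of sorted hepatocytes was read in 12 QuantSeq 3′ FWD libraries, per the labels' protocols. The authors deposited raw counts per gene symbol, unscaled as the values show. The submitters' processing notes name the builds mm10 and GRCm38 and the tools STAR 2.6.1d, cutadapt and FastQC. No source used here names the counter, annotation, strand setting or use of molecular identifiers. Totals of 1617761 to 3028951 counts limit the precision of low genes.

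edgeR 4.0.16 (R 4.3.3) was run on the whole table: filterByExpr (minimum count 10, total 15; 10780 genes kept), TMM, 1 coefficient per group over 12 samples, quasi-likelihood F test, Benjamini-Hochberg at 0.05. An SE is the absolute log2 fold change over the square root of F. The 5 contrasts are 2 injury responses, 1 per genotype, 2 knockout effects, 1 per injury state, and the interaction. Libraries of a group differed beyond sampling noise (8.56 to 26.6 in chi-square over its degrees of freedom).

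Alternatives were RLE factors, library totals, no filter, DESeq2 1.42.0, a replicate block, 6-sample fits and leaving out each library. Members, partner lists and tests were chosen with earlier results of these data known. In detail are members called in at least 1 contrast plus Slc25a1, Slc25a4, Slc25a5, Slc25a10, Slc25a13, Slc25a15, Slc25a20, Slc25a25, Slc25a37 and Slc25a47; the values of 1 member are not reported here, though counts and sums include it; partner lists are given by counts and at most 3 genes with the smallest adjusted p.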

Additional observations from a re-analysis of the deposited data

How the results depend on the processing

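Of the 23 calls of a member in an injury response, 9 held in all 18 alternatives, 14 were lost in at least 1, and none reversed. Members called higher in controls numbered 1 in a fit of the 6 samples compared, with 762 of 10041 genes higher there. Leaving out 1 library gave 0 to 2 higher and 5 to 12 lower in controls, and 1 to 2 higher and 6 to 10 lower in knockouts; the lowest counts came without ctrl replicate 2 or 3 or ctrl + CCl4 replicate 3 (0 higher), without ctrl + CCl4 replicate 1 (5 lower), without Yap/Taz KO replicate 3 (1 higher), and without Yap/Taz KO + CCl4 replicate 1 or 2 or Yap/Taz KO replicate 2 (6 lower). Calls over all genes moved as well. In controls, 1290 genes were lower in the main fit, 1466 without ctrl replicate 1 (12 members) and 968 without ctrl + CCl4 replicate 1 (5 members). In knockouts, 900 genes were lower in the main fit, 565 without Yap/Taz KO replicate 2, and 516 and 592 without Yap/Taz KO + CCl4 replicates 1 and 2. Library totals gave 3 members lower in knockouts. For the knockout without injury, DESeq2 and edgeR without the low-count filter each called 1 member, Slc25a25. Over all genes, DESeq2 called 21 higher and 18 lower of 10666 there. The unfiltered edgeR fit called 75 higher and 135 lower of 19259. With a replicate block, 2 members were higher and 11 lower in controls (1250 and 1344 of all genes). In knockouts it gave 2 higher and 9 lower (1101 and 994 of all genes). The block kept 22 of the 23 calls, losing Slc25a1 in knockouts (edgeR adjusted p = 0.0534). Deviations of same-numbered libraries correlated at over 0.1 in 8 of 18 pairs (median -0.01) and those of other pairs in 9 of 36 (median -0.03), and since not every pair did, the numbers were not taken to pair the libraries. At these depths, members at a few CPM, such as Slc25a14, Slc25a36 and Slc25a40, had SEs of 0.70 to 0.92 on the log2 scale in the injury responses, and 13 members could not be tested.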

Other observations

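Mpc1 and Mpc2 form the mitochondrial pyruvate carrier, which belongs to another family. Mpc2 had 226 to 530 CPM over the 12 libraries. Mpc1 had 0.411 CPM in ctrl replicate 1 and 0 in the other 11 libraries, as the table counts it. Both genes were looked at again after their values were seen, and no source used here names the annotation behind the counting.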
